A study of Mus musculus with 2 samples.

Results

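A set of 34 genes of cholesterol and fatty acid synthesis was followed through single cells of the mouse prostate. The genes were chosen by name, each of the 34 symbols was found once among the 32285 genes of the count matrices, and they fall into 3 sets. The sterol arm has 19 genes, 18 enzymes of the route from acetyl-CoA to cholesterol and the sterol carrier Stard4. The 4 regulators are Insig1, Srebf1, Srebf2 and Scap, and the fatty acid arm has 11 genes. The study consists of 1 droplet library of tumour tissue and 1 of normal prostate tissue lying next to a tumour, called the adjacent library here (its title reads healthy). Tissue was digested with collagenase and trypsin, and sorted CD45+ cells (leukocytes) and CD45- cells were loaded together, while the cell type label names only leukocytes and epithelial cells, so the sort and the loading set how many cells of each lineage were captured. Genotype, strain, age, treatment and the number of animals are not given in the labels, and nothing further is known here of the tumour model. With 1 library per condition there is no replicate and no test, each ratio compares 2 libraries and not the conditions, and all intervals are 95% intervals of counting error only.

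Cholesterol is assembled in the endoplasmic reticulum from acetyl-CoA by way of mevalonate, isoprenoid and squalene intermediates, and fatty acids are built from the same precursor in the cytosol before they are elongated and desaturated. The SREBP factors encoded by Srebf1 and Srebf2 drive both routes: when membrane sterol is low, the escort protein Scap carries them to the Golgi for cleavage, and Insig1 holds them back when sterol is plentiful. In prostate epithelium both routes are known as androgen-responsive, and prostate tumours are known for high lipid synthesis.

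Promoter sequences are shown for 4 of the genes whose levels are described below, to set the letters of shared SREBP and NF-Y motifs beside them. They come from the RefSeq promoter table on GRCm38.p6, which held 27 of the 34 genes. Each run gives the 180 bases before the transcription start, 5′ to 3′ on the gene's strand, with motif matches in capitals. The motifs searched on both strands were TCACNCCAC (a form of the sterol regulatory element), CCAAT (the NF-Y box, ATTGG on the other strand) and CACGTG (an E-box, its own reverse complement).
Hmgcs1: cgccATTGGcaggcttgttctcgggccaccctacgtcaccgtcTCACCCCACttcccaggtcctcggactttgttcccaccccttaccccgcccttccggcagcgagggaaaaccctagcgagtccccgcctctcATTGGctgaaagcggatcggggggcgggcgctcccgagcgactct
Idi1: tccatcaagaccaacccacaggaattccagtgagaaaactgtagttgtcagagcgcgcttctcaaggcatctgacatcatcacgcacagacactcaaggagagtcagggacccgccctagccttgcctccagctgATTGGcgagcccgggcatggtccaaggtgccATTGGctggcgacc
Msmo1: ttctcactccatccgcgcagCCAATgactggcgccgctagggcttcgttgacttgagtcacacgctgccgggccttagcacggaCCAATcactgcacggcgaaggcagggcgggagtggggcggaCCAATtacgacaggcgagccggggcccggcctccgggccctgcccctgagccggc
Fasn: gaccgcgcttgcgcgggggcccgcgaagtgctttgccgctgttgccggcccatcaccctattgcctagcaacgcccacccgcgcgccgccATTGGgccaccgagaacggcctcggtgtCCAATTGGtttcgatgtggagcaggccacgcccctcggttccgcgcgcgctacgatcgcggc
The windows lie at chr13:119690171-119690350 on the plus strand for Hmgcs1, chr13:8885426-8885605 on the plus strand for Idi1, chr8:64733579-64733758 on the minus strand for Msmo1 and chr11:120824548-120824727 on the minus strand for Fasn. In Hmgcs1 the sterol regulatory element letters TCACCCCAC begin 137 bases before the start, and 2 CCAAT matches flank them. Idi1 has 2 CCAAT matches, Msmo1 has 3, and Fasn has 3, of which 2 overlap. Over windows of 250 bases before to 50 after the start, CCAAT was found in 14 of 15 sterol genes (93.3%), 3 of 4 regulators, 5 of 8 fatty acid genes (62.5%) and 41.1% of all 27025 genes in the table. Only Hmgcs1 among the 27 genes held TCACNCCAC, against 1.44% of all genes, and 6 of the 27 (22.2%) held CACGTG, against 8.09%. These matches are letters in a window and were not tested as binding sites.

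Lineages were set by marker genes. A cell with at least 200 genes and at most 20% mitochondrial UMIs (unique transcript counts) was assigned when it had at least 3 UMIs from at least 2 markers of a lineage and these made up at least 80% of its UMIs over all 5 marker lists. The lists included Epcam, Krt8 and Krt5 for epithelial, Col1a1, Dcn and Pdgfra for stromal, C1qa, Ly6c2 and Csf3r for myeloid, Flt3, Xcr1 and Ccr7 for dendritic, and Cd3e, Cd79a and Ncr1 for lymphoid cells. Subsets were set by the same kind of rule, with Csf3r, Cxcr2 and Retnlg among the neutrophil markers, C1qa, Adgre1 and Ly6c2 among those of mononuclear phagocytes, and Cd79a and Ms4a1, Cd3e and Trac, and Ncr1 and Klrb1c among those of B, T and NK cells. The libraries held 77855775 (adjacent) and 92188538 (tumour) UMIs, and 65.1% and 69.9% of passing cells were assigned. This gave 279 epithelial cells in the adjacent and 414 in the tumour library, 139 and 260 stromal cells, 1671 and 2920 myeloid cells, 118 and 190 dendritic cells, and 1832 and 1645 lymphoid cells. In both libraries all markers of each lineage were detected in its own cells, and 258 of 260 tumour stromal cells and all 139 adjacent ones met the fibroblast rule. Median depth ranged from 5082 UMIs (adjacent myeloid) to 16244 UMIs (adjacent epithelial). The libraries shared 18 cell barcodes. A group of epithelial cells carried secretory genes of the seminal vesicle, a neighbouring gland: the list of 5 such genes reached 63576 CPM (UMIs of a gene per 1000000 UMIs of its cells) in adjacent and 34282 CPM in tumour epithelial cells, with 15 and 22 cells over 5%.

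Over all cells of each lineage, the summed sterol synthesis genes were highest in epithelial and dendritic cells and lowest in myeloid cells. In the adjacent library the summed sterol arm was 628 CPM (592 to 667) in dendritic, 612 CPM (592 to 632) in epithelial, 467 CPM (456 to 479) in lymphoid, 459 CPM (424 to 497) in stromal and 310 CPM (302 to 317) in myeloid cells. In the tumour library it was 811 CPM (792 to 831) in epithelial, 644 CPM (613 to 676) in dendritic, 428 CPM (416 to 441) in lymphoid, 300 CPM (277 to 326) in stromal and 290 CPM (284 to 296) in myeloid cells. Intervals overlapped between dendritic and epithelial cells and between lymphoid and stromal cells of the adjacent library, and between stromal and myeloid cells of the tumour library. The epithelial rank in the adjacent library was lost without cells holding at least 3 UMIs of cycling genes. The adjacent order was then dendritic (533 CPM), lymphoid (433 CPM), stromal (428 CPM), epithelial (381 CPM) and myeloid (251 CPM). In the tumour library dendritic (617 CPM) and epithelial cells (504 CPM) stayed highest. Much of the dendritic sum came from Pmvk (130 and 110 CPM) and Idi1 (98.5 and 116 CPM). The other sterol genes of dendritic cells were not summed separately, so the sum does not show that the route as a whole was high there. Only 3 of the 19 genes in the adjacent and 2 in the tumour library were highest in dendritic cells, where 11.5% and 10.6% of all genes were.

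**Figure D1:**
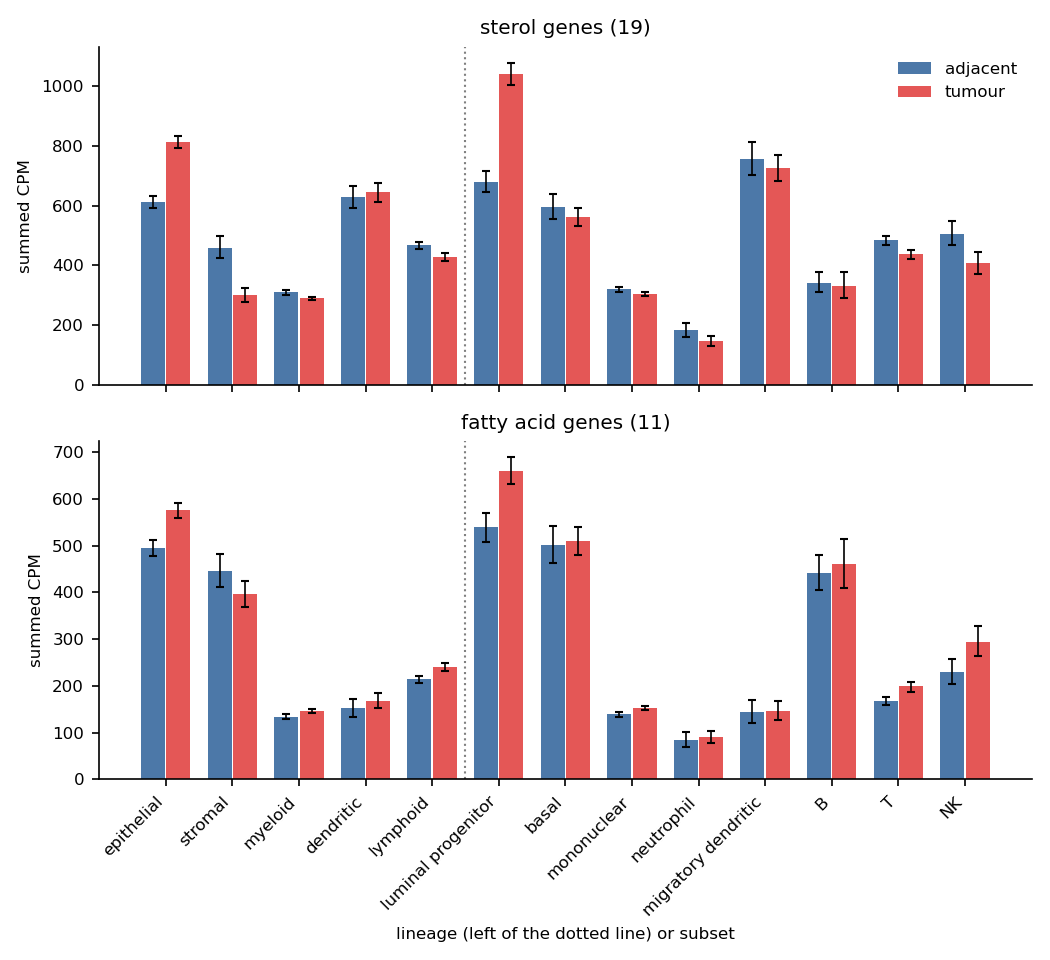
Summed level of the sterol arm (19 genes, top) and the fatty acid arm (11 genes, bottom) in CPM, by lineage and by subset, with the adjacent library in blue and the tumour library in red and bars of the exact Poisson 95% interval. Luminal progenitor cells of the tumour library have the highest sterol sum, 1039 CPM, and neutrophils the lowest.

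Within the dendritic lineage Idi1 and Pmvk stood out in cells with migratory markers (Ccr7, Fscn1, Cacnb3, Ccl22), which mark mature dendritic cells able to move to lymph nodes. The sterol sum of these cells was 757 CPM (703 to 814) in 73 adjacent cells and 724 CPM (681 to 770) in 112 tumour cells. The whole dendritic lineage, which includes them, was at 628 and 644 CPM. Much of the migratory sum came from Idi1 and Pmvk, and the rest of the arm was not summed separately. No other dendritic subset is described here for comparison. Idi1, the isomerase that makes the reactive isoprene unit, was at 150 CPM (126 to 176) and 172 CPM (151 to 195) in migratory dendritic cells. Next highest were NK cells in the adjacent library, at 39.1 CPM, and luminal progenitor cells in the tumour library, at 75.4 CPM. Pmvk, the second mevalonate kinase, was at 175 CPM (149 to 203) and 148 CPM (129 to 170) in the same cells, against at most 46.0 CPM in the other subsets named here. These levels came from many cells: 43 of 73 and 62 of 112 migratory cells had an Idi1 UMI, 51 and 76 had a Pmvk UMI, and no single cell gave more than 9.43% of the Idi1 UMIs. After thinning every cell to 1000 UMIs, Pmvk was detected in 16.4% and 14.5% of migratory dendritic cells and in 2.18% and 1.83% of T cells. Srebf2, which encodes the factor that drives sterol genes, was also highest in dendritic cells, at 87.0 and 97.8 CPM against 47.5 and 49.3 CPM in the next lineage.

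Of the 19 sterol genes, 7 were highest in epithelial cells of the adjacent library, and 13 in those of the tumour library. Counted over all 34 genes, 12 were highest in epithelial cells of the adjacent library, where 26.0% of all genes with at least 50 UMIs were, and 19 in the tumour library, where 30.4% were. No member was highest in myeloid cells in either library, against 10.8% and 11.1% of all genes. Fdft1, squalene synthase and the first committed step to sterols, was at 54.8 CPM in adjacent and 72.3 CPM in tumour epithelial cells, 2.77 and 5.41 times the next lineage. Msmo1, a C4 methyl oxidase of the late pathway, was at 62.0 and 89.2 CPM, 2.20 and 2.44 times the next. Tm7sf2, a sterol C14 reductase, was at 9.62 and 9.85 CPM, 2.79 and 4.18 times the next, with no UMI in 139 adjacent stromal cells (the limit of 0 counts is 2.70 CPM). These 3 genes and, in 1 library each, Sqle (adjacent, 2.14 times) and Nsdhl (tumour, 2.02 times) were the sterol genes at least 2-fold above every other lineage in epithelial cells, a level that 8.69% and 10.4% of all genes reached. Pmvk and Idi1 were so in dendritic cells of both libraries, as were 2.88% and 2.51% of all genes. Among all members none was 2-fold highest in myeloid cells, where 3.32% and 3.70% of genes were, or in lymphoid cells, where 5.08% and 5.06% were. Sqle encodes squalene epoxidase and Nsdhl the C4 decarboxylase that works after Msmo1.

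The other sterol genes were spread more evenly. Ebp, the sterol isomerase, differed by only 1.49 and 1.58 times between its highest and lowest lineage, and was highest in lymphoid cells at 80.8 and 76.4 CPM. Cyp51, the lanosterol demethylase, was at 93.4 and 76.6 CPM in lymphoid cells, where its B, T and NK cells lay between 68.6 and 98.8 CPM, and at 39.5 and 28.4 CPM in stromal cells. Stard4, the carrier that moves cholesterol between membranes, was highest in lymphoid cells at 25.9 and 24.2 CPM, 1.96 and 1.63 times the next lineage. Hsd17b7, a ketosteroid reductase of the pathway, was also highest there, at 12.8 and 11.1 CPM. Sc5d and Dhcr7, which act in the last steps, were highest in epithelial cells, at 47.1 and 48.9 CPM and at 11.0 and 9.24 CPM. Mvk, mevalonate kinase, was highest in stromal cells in both libraries, at 28.6 and 17.2 CPM, though in the tumour library lymphoid cells were nearly level at 15.8 CPM. For Acat2, Hmgcs1, Mvd, Fdps, Lss and Cyp51 the highest lineage differed between the libraries. Acat2 has a near-identical copy in the mouse genome, so its reads may be split between the copies.

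**Figure D2:**
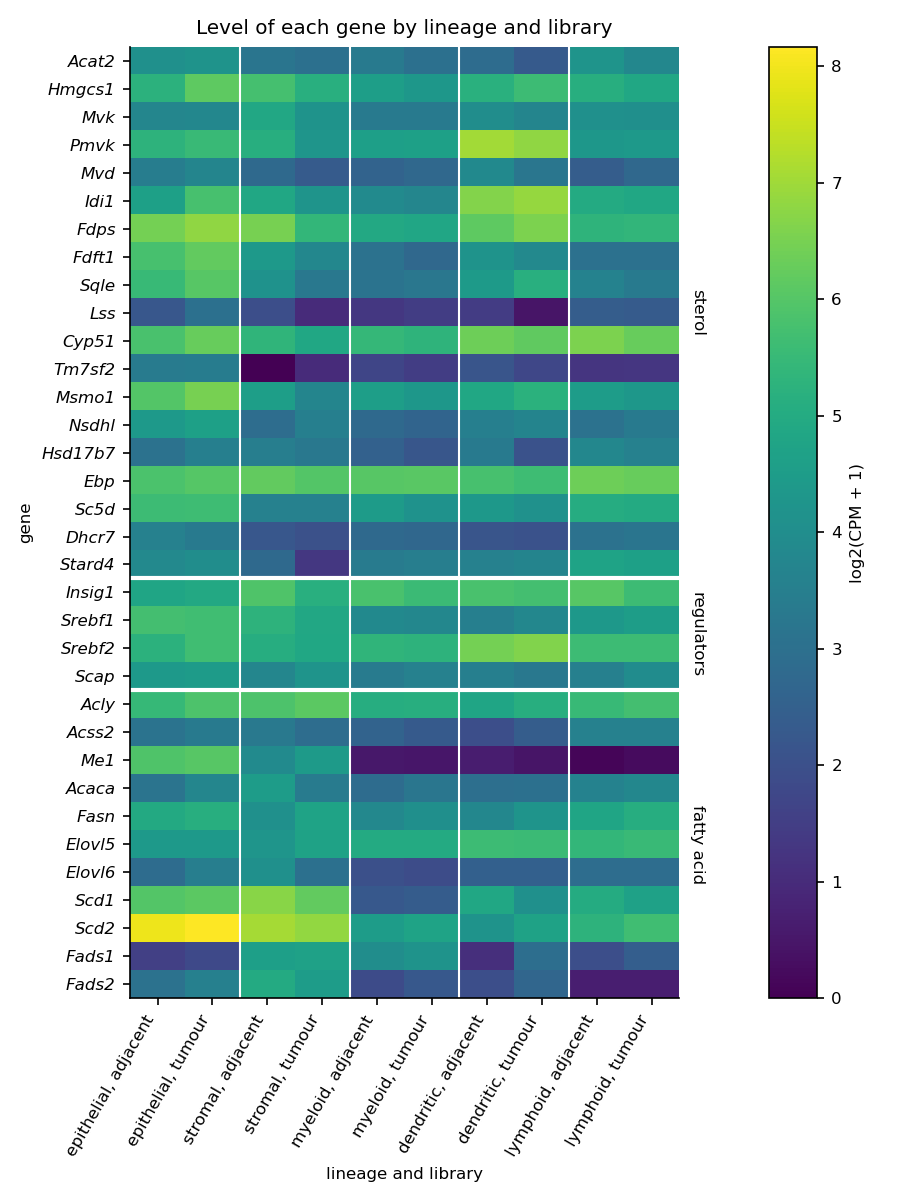
Level of each of the 34 genes as log2(CPM + 1), colour from 0 to above 8, in 5 lineages with the adjacent library left and the tumour library right in each pair. White lines part the sterol arm, the regulators and the fatty acid arm. Pmvk and Idi1 are bright in dendritic cells, Me1 and Scd2 in epithelial cells, and Fads1 is brighter in stromal and myeloid than in epithelial cells.

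The summed fatty acid synthesis genes were highest in epithelial and stromal cells, and Scd2 alone gave 50.6% and 49.7% of the epithelial sum. The fatty acid arm summed to 495 CPM (477 to 513) in adjacent and 576 CPM (559 to 592) in tumour epithelial cells, and to 445 CPM (411 to 482) and 396 CPM (368 to 424) in stromal cells. The intervals of these 2 lineages overlapped in the adjacent library only. Lymphoid cells followed at 214 and 241 CPM, dendritic cells at 152 and 168 CPM, and myeloid cells at 134 and 146 CPM. Dendritic cells were thus high in the sterol sum and low in this one. Without Scd2 the other 10 genes summed to 245 CPM (232 to 258) in adjacent and 290 CPM (278 to 302) in tumour epithelial cells, against 311 CPM (282 to 342) and 282 CPM (259 to 307) in stromal cells, so the adjacent order of these lineages turned. With Scd2 but without cycling cells the adjacent order turned as well, with stromal cells at 460 CPM and epithelial cells at 337 CPM. In the tumour library stromal cells were then at 409 CPM and epithelial cells at 459 CPM. Of the 11 genes, 3 were highest in adjacent and 4 in tumour epithelial cells, and 6 and 4 in stromal cells, which held the highest level of 24.8% and 21.4% of all genes.

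Scd2, a desaturase that makes monounsaturated fatty acids, was at 250 CPM in adjacent and 286 CPM in tumour epithelial cells and at 134 and 113 CPM in stromal cells. In the immune lineages it lay between 17.3 and 49.8 CPM. Me1, the malic enzyme that supplies NADPH, was at 58.8 CPM (52.7 to 65.3) and 64.5 CPM (59.1 to 70.3) in epithelial cells and at 13.9 and 20.8 CPM in stromal cells. Lymphoid cells gave 1 Me1 UMI in the adjacent and 2 in the tumour library, and the myeloid level was 0.427 and 0.406 CPM. Fads2, the first desaturase of polyunsaturated fatty acids, was highest in stromal cells at 30.8 and 21.8 CPM, 4.16 and 2.03 times the next lineage. In stromal cells Fads2 and, in the adjacent library, Elovl6 were the members at least 2-fold above every other lineage, as were 8.92% and 8.06% of all genes. Adipocyte markers (Adipoq, Plin1, Cidec, Lep, Retn) summed to 2.20 CPM in adjacent stromal cells, with no UMI in those of the tumour library.

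Fads1 and Scd1 differed between subsets of 1 lineage. Fads1, the second desaturase of that route, was at 23.4 and 24.3 CPM in stromal cells and at 16.7 CPM (14.9 to 18.7) and 19 CPM (17.5 to 20.6) in mononuclear phagocytes, that is monocytes and macrophages. Neutrophils gave 0 Fads1 UMIs in 438 adjacent cells (at most 2.87 CPM) and 2 in 853 tumour cells, and luminal progenitor cells gave 1 and 0. Scd1, the paralogue of Scd2, was at 305 CPM (274 to 338) in 178 B cells of the adjacent library and at 327 CPM (285 to 374) in 96 B cells of the tumour library. T cells were at 2.0 and 2.21 CPM and NK cells at 1.59 and 2.65 CPM. A Scd1 UMI was found in 74.2% and 79.2% of B cells, and in 1.18% and 1.30% of T cells, whose median depths were 5009 and 5600 against 5736 and 5047 UMIs. At 1000 UMIs per cell the shares were 33.0% and 28.4% of B cells and 0 of 1147 and 3 of 1147 T cells (0.262%). B cells had the highest Scd1 level of the classes named here, above stromal cells (103 and 72.4 CPM) and luminal progenitor cells (66.3 and 92.2 CPM). Scd2 in B cells was 35.2 and 35.9 CPM, close to T cells at 31.1 and 38.3 CPM. The 2 desaturases are similar in sequence, and how reads shared between them were counted is not given in the sources used here.

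**Figure D3:**
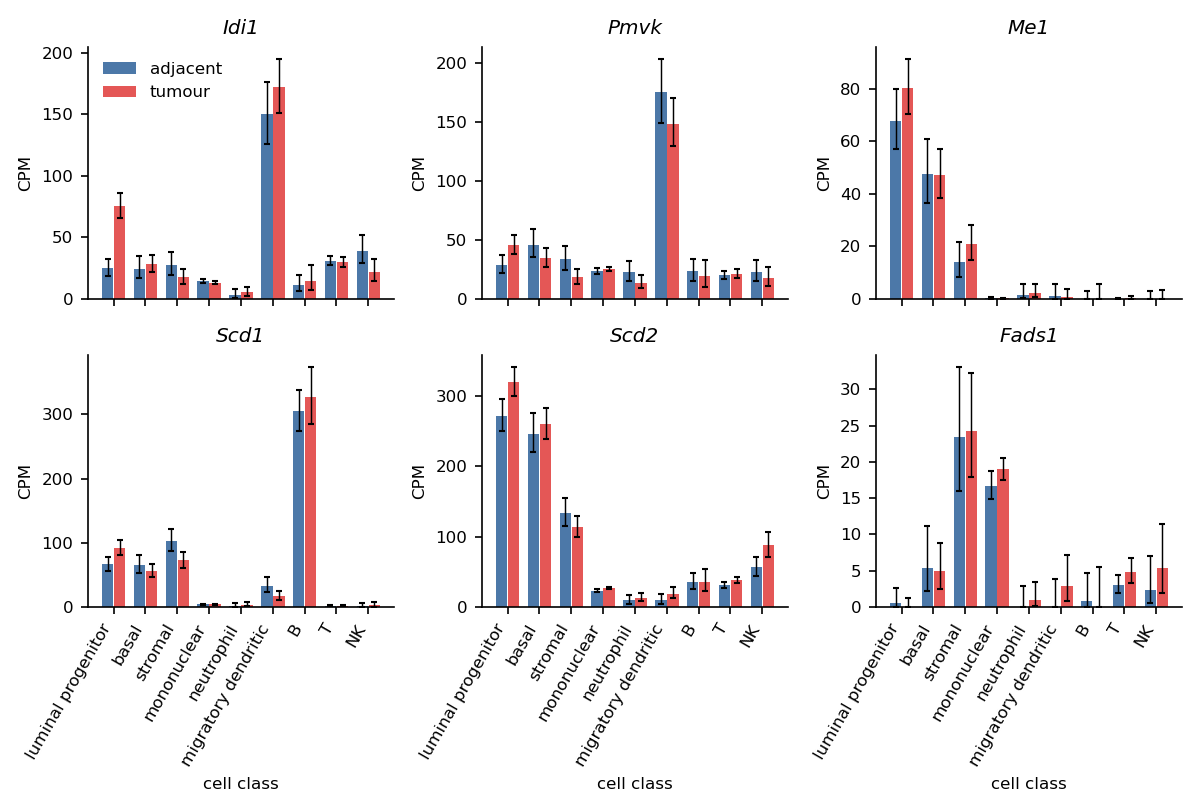
CPM of Idi1, Pmvk, Me1, Scd1, Scd2 and Fads1 in 9 cell classes, adjacent library blue and tumour library red, with exact Poisson 95% intervals. Idi1 and Pmvk peak in migratory dendritic cells, Scd1 in B cells, Me1 and Scd2 in epithelial subsets, and Fads1 in stromal cells and mononuclear phagocytes.

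The remaining fatty acid genes differed less between lineages. Elovl5, an elongase of polyunsaturated chains, was highest in dendritic cells at 47.8 and 46.7 CPM, with lymphoid cells at 41.2 and 45.8 CPM. Acly, which makes cytosolic acetyl-CoA from citrate, was highest in stromal cells at 58.6 and 68.4 CPM and lowest in dendritic cells at 27.1 and 33.4 CPM. Fasn, the fatty acid synthase, was at 30.1 and 33.6 CPM in epithelial cells and at 26.7 and 32.9 CPM in lymphoid cells. Acss2, the acetate-activating synthetase, was highest in lymphoid cells at 11.0 CPM in both libraries. Acaca, the carboxylase that makes malonyl-CoA, and Elovl6, the elongase of saturated chains, were highest in stromal cells of the adjacent library only, at 22.0 and 16.1 CPM. Among the regulators, Srebf1 was highest in epithelial cells (51.4 and 49.3 CPM) and Scap likewise (20.1 and 21.4 CPM). Insig1 was lowest in epithelial cells, at 26.8 and 29.3 CPM, and reached 64.6 CPM in adjacent lymphoid cells and 51.8 CPM in tumour dendritic cells.

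Between the libraries, sterol genes were higher in tumour than in adjacent epithelial cells. The ratio of the sums was 1.33 (1.27 to 1.38), and 18 of 19 genes were higher, among them Mvk at a ratio of 1.00, as were 65.8% of all measured genes. Their median log2 ratio was 0.27, against 0.09 over the 10710 genes measured there with at least 50 UMIs. Hmgcs1, the synthase that feeds the mevalonate route, was at 37.3 CPM in the adjacent and 68.8 CPM in the tumour library, a ratio of 1.85 (1.58 to 2.17). Idi1 was at 24.2 and 53.8 CPM, a ratio of 2.22 (1.83 to 2.70), and Lss, lanosterol synthase, at 3.61 and 7.14 CPM, a ratio of 1.98 (1.18 to 3.43). These were the 3 sterol genes at least 1.5-fold higher, a difference that 6.22% of all measured genes showed, and none was 1.5-fold lower, as 2.28% were. Dhcr7 was the exception in direction, at 11.0 and 9.24 CPM. In the fatty acid arm the ratio of sums was 1.16 (1.11 to 1.22), and Acaca (7.73 and 12.3 CPM) and Elovl6 (6.36 and 10.2 CPM) passed 1.5-fold among 10 measured genes. Per cell, the lower quartile of the sterol sum was 126 CPM in the adjacent and 192 CPM in the tumour library, the median 365 and 362 CPM, and the upper quartile 638 and 771 CPM. Without the cells over 5% seminal vesicle UMIs the log2 ratio of the sterol sums was 0.35, against 0.41 with them, and a marker share of at least 95% gave 14 members past 1.5-fold in place of 5. Thinning to 1000 UMIs per cell left 8 adjacent and 9 tumour epithelial cells with an Idi1 UMI, and the log2 ratio was then -0.42 for Idi1 and -1.59 for Lss.

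Among epithelial subsets, the sterol sum was higher in tumour cells with luminal progenitor markers (among them Krt4 and Krt7) and close to equal in cells with basal keratins (Krt5, Krt14, Krt15, Krt17). In 89 adjacent and 140 tumour luminal progenitor cells the sterol sum was 680 CPM (645 to 716) and 1039 CPM (1003 to 1076), a ratio of 1.53 (1.43 to 1.63). In 62 and 118 basal cells it was 596 CPM (555 to 639) and 561 CPM (531 to 593), a ratio of 0.942 (0.860 to 1.03). The difference between the subsets was not tested, since each has 1 library per condition. Luminal progenitor cells were 31.9% of adjacent and 33.8% of tumour epithelial cells, and basal cells 22.2% and 28.5%. The epithelial cells that met neither rule were not summed separately, so the higher tumour sum was not shown to be confined to luminal progenitor cells. Of 18 sterol genes measured in luminal progenitor cells 17 were higher in the tumour library, as were 61.0% of all genes, and 9 were at least 1.5-fold higher, against 7.09% of all genes there. None was 1.5-fold lower, against 2.61%, and the lowest was Dhcr7 at 14.8 and 10.8 CPM.

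The 9 genes belong to early and late steps of the pathway. Among enzymes of the mevalonate and isoprenoid steps, Idi1 was at 24.8 and 75.4 CPM, a ratio of 3.04 (2.24 to 4.19), and Hmgcs1 at 35.8 and 77.4 CPM, a ratio of 2.16 (1.66 to 2.85). Pmvk was at 29.1 and 45.4 CPM, and Fdps, which makes farnesyl diphosphate, at 94.9 and 147 CPM, ratios of 1.56 and 1.55. Fdft1 was at 57.2 and 106 CPM, a ratio of 1.86 (1.5 to 2.31). In the steps after lanosterol, Cyp51 was at 60.1 and 99.6 CPM (1.66), Msmo1 at 73.0 and 111 CPM (1.52), Nsdhl at 20.5 and 33.6 CPM (1.64) and Hsd17b7 at 8.11 and 13.8 CPM (1.70, 0.945 to 3.19). Only the interval of Hsd17b7 included a ratio of 1. In basal cells 6 of 12 measured sterol genes were higher and 6 lower, where 50.1% of all genes were higher. Sqle was the 1 sterol gene past 1.5-fold there, at 34.5 and 52.9 CPM (1.53, 1.08 to 2.21), where 6.34% of genes were 1.5-fold higher. Insig1 was lower in basal cells, as 1 of 21 measured members (4.76%), at 27.6 and 16.6 CPM (0.601, 0.369 to 0.978), where 4.92% of genes were 1.5-fold lower.

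**Figure D4:**
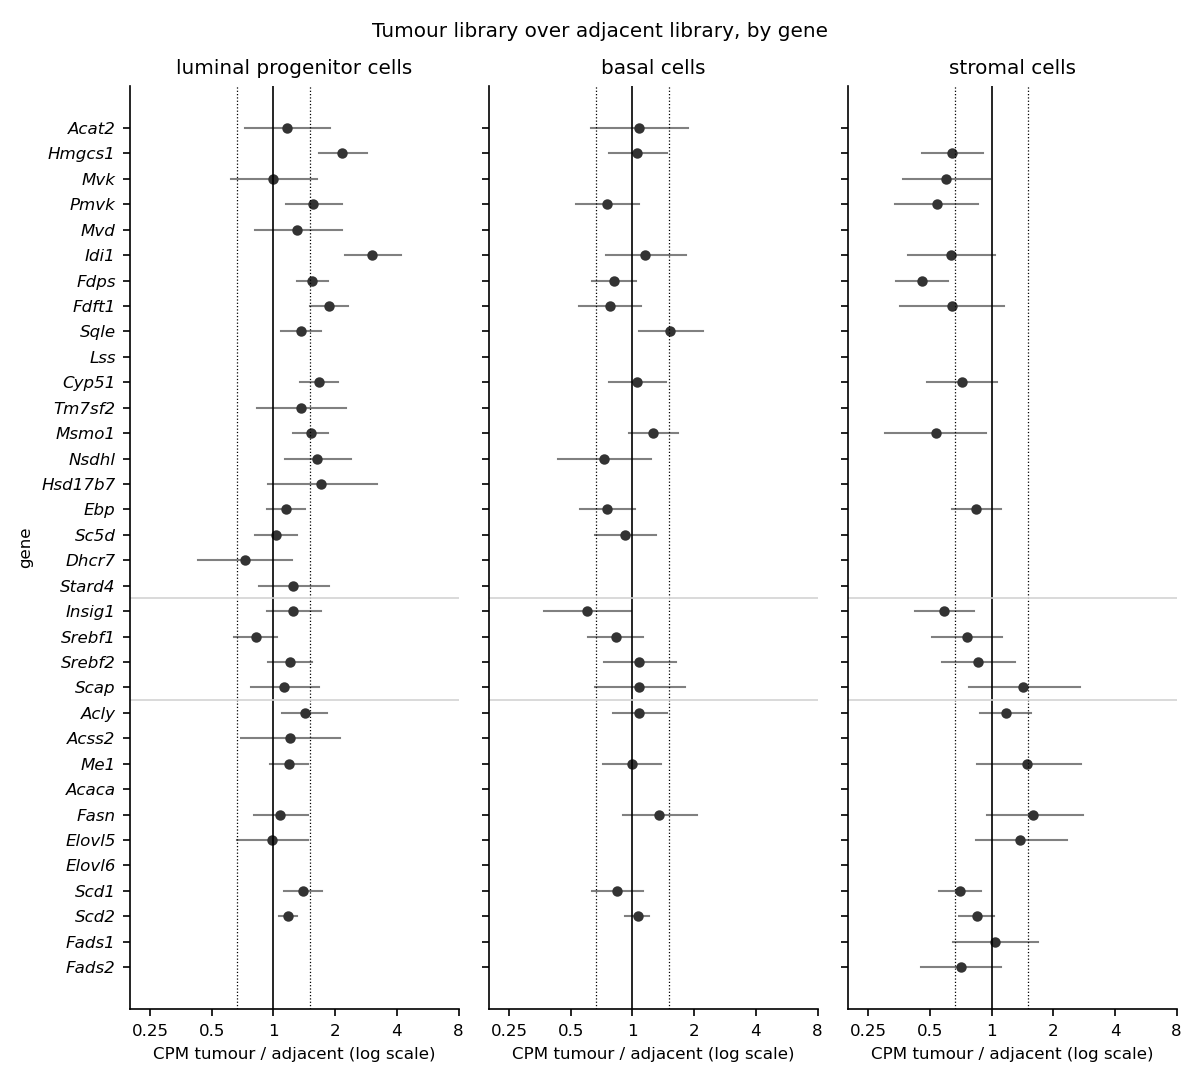
Ratio of CPM in the tumour over the adjacent library for each gene with at least 50 UMIs (points) with 95% counting intervals (lines), on a log scale, in luminal progenitor, basal and stromal cells. The solid line marks a ratio of 1 and the dotted lines 1.5-fold either way. Sterol genes lie mostly to the right in luminal progenitor cells, on both sides in basal cells and to the left in stromal cells.

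The sterol UMIs came unevenly from the cells. Over luminal progenitor cells with at least 1000 UMIs, the median sterol sum per cell was 388 CPM in the adjacent and 490 CPM in the tumour library, and the 90th percentile was 1179 and 2207 CPM. Cells above 1000 CPM made up 13 of 85 and 31 of 133, and the 10% of cells with the most sterol UMIs held 47.4% and 53.0% of them. An Idi1 UMI was found in 19 of 89 and 42 of 140 luminal progenitor cells. Seminal vesicle genes summed to 36033 and 11917 CPM in these cells and the median mitochondrial share was 4.59% and 6.30%, and the log2 ratio of the sterol sums was 0.58 without the cells over 5% seminal vesicle UMIs and 0.49 with at most 10% mitochondrial UMIs (5 genes past 1.5-fold), against 0.61. Leaving out cells with at least 3 UMIs of a list of cycling genes (48.3% and 56.4% of these cells) gave 0.38, left 2 genes past 1.5-fold in place of 9, and turned Fdps, Nsdhl and Hsd17b7 to lower values in the tumour library, with 46 adjacent cells remaining.

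**Figure D5:**
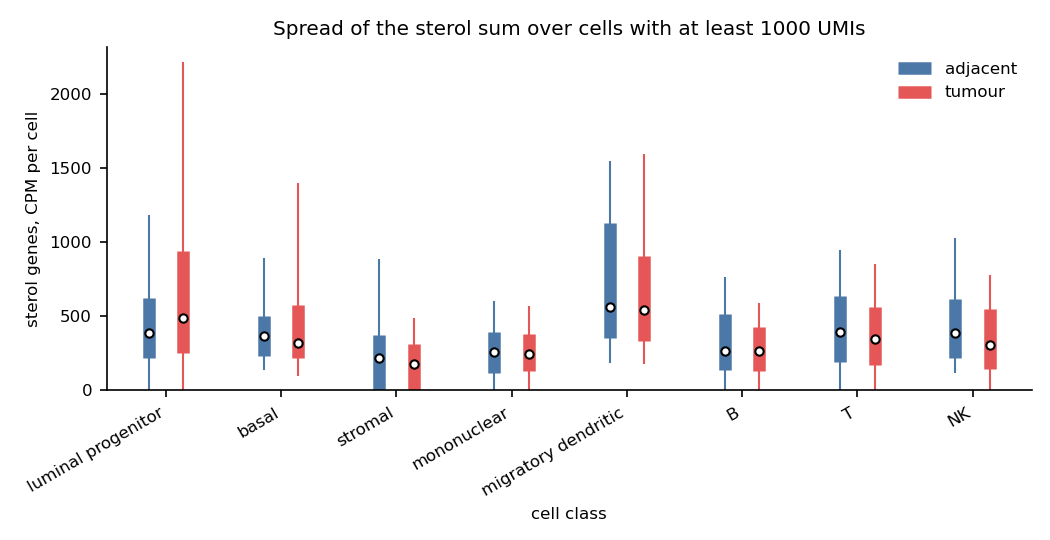
Sterol sum per cell in CPM over cells with at least 1000 UMIs in 8 cell classes, adjacent library blue and tumour library red. Dots are medians, thick bars the 25th to 75th percentile and thin lines the 10th to 90th. The upper range of tumour luminal progenitor cells reaches 2207 CPM, while their median is 490 CPM.

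In stromal cells the sterol genes were lower in the tumour library. The sums of 459 and 300 CPM gave a ratio of 0.654 (0.584 to 0.733), and all 9 sterol genes with at least 50 UMIs were lower, while 42.4% of all genes were higher. Their median log2 ratio was -0.65, against -0.06 over 6830 genes. Fdps was at 89.3 and 41.0 CPM (0.459, 0.342 to 0.613), Pmvk at 33.7 and 18.2 CPM (0.541, 0.340 to 0.856) and Hmgcs1 at 53.5 and 34.4 CPM (0.644, 0.456 to 0.909). With Mvk (28.6 and 17.2 CPM), Msmo1 (22.7 and 12.2 CPM), Idi1 (27.8 and 17.7 CPM) and Fdft1 (19.8 and 12.7 CPM), 7 of the 9 were at least 1.5-fold lower, as were 6.03% of all genes, but the intervals of Idi1 and Fdft1 included 1. Ebp (73.2 and 61.8 CPM) and Cyp51 (39.5 and 28.4 CPM) were the other 2. Insig1, itself a target of the SREBP factors, was also lower, at 59.3 and 34.9 CPM (0.589, 0.421 to 0.822).

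The fatty acid genes of stromal cells were split in direction. Of 8 measured, 5 were higher and 3 lower in the tumour library, and the ratio of sums was 0.888 (0.798 to 0.989), which turned to a log2 ratio of 0.01 with every cell weighted equally. Acaca, Elovl6 and Acss2 had under 50 UMIs and were not counted, and all were lower. Acaca was at 22.0 and 9.62 CPM (0.438, 0.233 to 0.804) and Elovl6 at 16.1 and 7.09 CPM (0.440, 0.208 to 0.900). The Acss2 interval included a ratio of 1 (0.749, 0.315 to 1.80). Fasn was at 16.1 and 25.8 CPM (1.60, 0.955 to 2.78), where 4.63% of genes were 1.5-fold higher, and Scd1 at 103 and 72.4 CPM (0.701, 0.552 to 0.891). The sterol UMIs came unevenly from stromal cells with at least 1000 UMIs. The 10% with the most sterol UMIs, not scaled for depth, held 60.9% in the adjacent and 52.1% in the tumour library. In each library 1 cell held 12.5% and 13.4%. Over stromal cells with at least 1000 UMIs the median sum was 217 and 181 CPM, and 8 of 127 and 4 of 220 cells were above 1000 CPM. Median depth was 7667 UMIs in adjacent and 5407 UMIs in tumour stromal cells. The log2 ratio of the sums was -0.58 with every cell thinned to 1000 UMIs and -0.61 without thinning. Among alternative settings, a marker share of at least 95% reduced the 9 members past 1.5-fold in either direction to 4.

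In the immune lineages as a whole few members passed 1.5-fold between the libraries, with more in NK cells. In dendritic cells the sterol ratio was 1.02 (0.949 to 1.11). Sqle was higher there, as 1 of 19 measured members (5.26%), at 20.7 and 34.6 CPM (1.67, 1.12 to 2.53), with 4.50% of genes 1.5-fold higher. Scd1 was lower, also as 1 of 19, at 28.2 and 16.1 CPM (0.571, 0.368 to 0.882), with 3.79% of genes 1.5-fold lower. In lymphoid cells the sterol sum had a ratio of 0.916 (0.882 to 0.951), with 5 of 18 measured genes higher and 13 lower, and the fatty acid sum one of 1.13 (1.07 to 1.19), with 7 of 9 higher, where 51.5% of all genes were higher. Fads1, at 2.92 and 4.46 CPM (1.53, 0.984 to 2.38), was the 1 of 31 measured members past 1.5-fold there (3.23%), against 2.89% of genes higher and 2.15% lower. Lymphoid Insig1 was at 64.6 and 47.8 CPM (0.741, 0.664 to 0.826). Lymphoid Scd1 was at 31.8 and 24.7 CPM (0.776, 0.664 to 0.905) while the B cell level was 305 and 327 CPM, and B cells were 9.72% and 5.84% of lymphoid cells. In myeloid cells no member passed 1.5-fold either way, where 1.85% of genes were higher and 2.28% lower, and the ratios were 0.935 (0.907 to 0.965) for the sterol and 1.09 (1.04 to 1.14) for the fatty acid arm. Mononuclear phagocytes held 88.7% and 87.8% of myeloid UMIs and were at 321 and 305 CPM of the sterol arm, while neutrophils were at 183 and 147 CPM.

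By immune subset, NK cells had the most members past 1.5-fold. In the 168 adjacent and 150 tumour NK cells, Insig1 was at 76.5 and 34.5 CPM (0.451, 0.302 to 0.660), Hmgcs1 at 43.8 and 23.9 CPM (0.545, 0.330 to 0.878), Idi1 at 39.1 and 22.1 CPM (0.566, 0.335 to 0.934) and Msmo1 at 26.3 and 16.8 CPM (0.639, 0.343 to 1.16). These 4 of 15 measured members were at least 1.5-fold lower in the tumour library, as were 3.96% of all genes. Scd2 was higher, at 56.6 and 87.6 CPM (1.55, 1.13 to 2.13), as were 4.43% of genes. In neutrophils Pmvk (22.6 and 13.9 CPM) and Insig1 (42.0 and 27.3 CPM) were lower among 9 measured members, where 6.09% of genes were higher and 4.89% lower. Fads1 was higher in T cells (3.01 and 4.83 CPM), as 1 of 30 measured members (3.33%), near the share of all genes, of which 3.10% were higher and 2.48% lower. Fads2 was higher in mononuclear phagocytes (2.78 and 4.20 CPM), as 1 of 33 measured members (3.03%), where 1.92% of genes were higher and 2.15% lower. Scd1 was lower in migratory dendritic cells (33.1 and 16.9 CPM), as 1 of 13 measured members (7.69%), where 7.18% of genes were higher and 3.73% lower. None of 7 measured members passed in B cells, where 4.30% of genes were higher and 6.38% lower. The intervals of Msmo1 in NK cells, Pmvk in neutrophils and Fads1 in T cells included a ratio of 1.

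Cells with at least 3 UMIs of a list of cycling genes (among them Mki67, Top2a, Stmn1 and Hmgb2) were compared with the other cells of their lineage. The sterol sum was higher in cycling cells of the lymphoid, myeloid and epithelial lineages of both libraries and in adjacent dendritic cells, while in tumour dendritic cells the ratio was 1.07 (0.964 to 1.18). Stromal cycling cells were too few (21 and 38) for a value. For myeloid cells the sterol ratio was 1.28 (1.19 to 1.37) and 1.43 (1.35 to 1.52). Of the sterol genes 3 of 17 and 8 of 19 were at least 1.5-fold higher there, as were 2970 of 10427 and 3574 of 11262 genes. Cycling cells had a median depth of 15196 against 2894 UMIs in the adjacent and 16076 against 2464 UMIs in the tumour library. Neutrophils were 18.7% and 10.1% cycling and mononuclear phagocytes 64.6% and 69.1%. The part of depth and cell mix was not tested. Among lymphoid cells the sterol sum was 481 CPM in cycling and 433 CPM in other cells of the adjacent library, a ratio of 1.11 (1.05 to 1.18), and 454 and 378 CPM in the tumour library, a ratio of 1.20 (1.13 to 1.28). The fatty acid ratio was 0.997 (0.919 to 1.08) and 1.10 (1.01 to 1.19). In tumour lymphoid cells 3 sterol genes (Idi1, Fdps, Fdft1) and 3 fatty acid genes (Elovl6, Scd2, Fads1) were at least 1.5-fold higher in cycling cells, where 7.05% of genes were. No member was so in the adjacent library, where 6.07% of genes were. Scd1 was at least 1.5-fold lower in cycling lymphoid cells, at 23.6 against 52.5 CPM and 15.3 against 43.0 CPM, as were 6.20% and 6.42% of genes. Its lymphoid level was highest in B cells, of which 42.1% and 33.3% were cycling. Of T cells 56.2% and 49.6% were cycling, and of NK cells 69.6% and 56.0%. The part of this cell mix in the Scd1 difference was not tested. Among epithelial cells the sterol ratio was 1.78 (1.61 to 1.96) and 1.79 (1.67 to 1.92), between groups that also differed in other ways. Median depth was 33485 UMIs in cycling and 2237 UMIs in other cells of the adjacent library and 27547 and 3701 UMIs in the tumour library, and seminal vesicle genes were at 14445 and 239678 CPM and at 17168 and 91742 CPM. Without Stmn1 and Hmgb2, 16 and 19 epithelial cells remained in the class. The part of depth and of the seminal vesicle genes in the ratio was not tested. There 12 of 17 sterol genes in the adjacent and 15 of 19 in the tumour library were at least 1.5-fold higher in cycling cells, where 44.6% and 12.1% of all genes were, and none was 1.5-fold lower, where 2.52% and 3.71% were. The median log2 ratio was 0.79 and 0.98 for the sterol genes and 0.51 and 0.18 for all genes. The cycling class was broad, since Stmn1 and Hmgb2 gave 77.2% and 69.9% of the list's UMIs in lymphoid cells. Without these genes 5.68% and 7.66% of lymphoid cells remained in the class, with log2 ratios of 0.39 and 0.49 for the sterol arm, and their median depth was 13074 and 13228 UMIs against 5849 and 5166 UMIs in the others. The part of depth in the difference was not tested.

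Other genes around the pathway had patterns of their own. Of 9 genes of sterol regulation and efflux, 4 were highest in myeloid cells in both libraries, as were 10.8% and 11.1% of all genes, among them the efflux pump Abca1 (197 and 216 CPM) and Soat1, which esterifies cholesterol for storage (91.2 and 86.6 CPM). Insig2, the second sterol sensor, was highest in epithelial cells at 74.1 and 69.2 CPM. Between the libraries, 5 of the 8 measured in epithelial cells were higher and none passed 1.5-fold, while in stromal cells Insig2 (27.1 and 41.5 CPM) and Abcg1, a second efflux pump (19 and 30.4 CPM), were at least 1.5-fold higher in the tumour library, as were 4.63% of all genes. Of 10 measured genes of other lipid synthesis steps all were higher in tumour epithelial cells, by a median log2 ratio of 0.16 and none by 1.5-fold, where 65.8% of all genes were higher, by a median of 0.09. Of 10 fatty acid oxidation genes 9 were higher there, by a median of 0.07, which is below that of all genes, and in stromal cells 3 of 8 were higher and 5 lower, where 42.4% of all genes were higher.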

How the data were processed

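As deposited, values are unnormalised UMI counts, 1 matrix a library, and per the file headers the tool was Cell Ranger 4.0.0. The submitters' processing notes also list R 4.0.3, Seurat 3.2.2 and GRCh38, a human build, while all features are mouse genes. The mouse build is, like the cell calling settings, not given in the sources used here. UMIs were summed over the cells of a lineage and library and divided by all UMIs of those cells (CPM). CPM has the exact Poisson interval and ratios the exact conditional binomial interval. No library was replicated, so no test was run, and a gene with at least 50 UMIs over both libraries of a lineage was called at 1.5-fold either way, or at 2-fold above every other lineage. Medians of log2 ratios over genes add 0.5 UMI to each count, while the log2 ratios printed for single genes and for sums do not. Subsets needed at least 2 UMIs of their markers, 80% of all subset marker UMIs of the lineage and 50 cells per library; conventional dendritic cells had 29 and 55 cells and are not described. Doublets were handled only by the 80% marker rule, with no caller run. Values in full were given for the 6 genes with the most UMIs of each arm, the regulators and each member past 1.5-fold in a lineage, and other members by level. Members, marker lists and pathway lists were chosen with earlier results of these data known. The ratio and its call were tested on simulated data. Alternatives changed the gate, the filters, the depth, the scaling and the cycling list. Some genes of the pathway are not reported here. Tools were Python 3.11.15, NumPy 2.4.6, SciPy 1.17.1, pandas 2.3.3 and matplotlib 3.10.9.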

Additional observations from a re-analysis of the deposited data

Results flagged for a closer look

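Ratios of the tumour to the adjacent library lay on opposite sides of 1 in 2 lineages, each beyond counting error, for all 3 gene sets. None of these differences was tested, since each lineage has 1 library per condition, and values are differences of log2 ratios. For the sterol arm, which was higher in tumour epithelial cells, the difference was 1.02 from stromal, 0.51 from myeloid and 0.54 from lymphoid cells. The myeloid log2 ratio turned to 0.05 at a marker share of at least 95%, so that its side of 1 is lost there. For the fatty acid arm, which was lower in tumour stromal cells, it was 0.39 for epithelial, 0.30 for myeloid and 0.35 for lymphoid cells. These directions did not hold in all settings: the stromal log2 ratio was 0.29 when thinned to 1000 UMIs per cell and 0.01 with equal weight for every cell, the lymphoid one -0.06 when thinned, and the myeloid one -0.02 without cycling cells. For the regulators it was 0.51 between epithelial and stromal, 0.27 between epithelial and myeloid and 0.25 between epithelial and lymphoid cells, and the stromal log2 ratio of the regulators turned to 0.07 when thinned. Among single genes, Hmgcs1 and Idi1 were at least 1.5-fold higher in tumour epithelial and at least 1.5-fold lower in tumour stromal cells, with differences of 1.52 and 1.80, although the stromal interval of Idi1 included a ratio of 1 and its epithelial log2 ratio was -0.42 when thinned.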

How the results depend on the processing

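Values are log2 ratios of the tumour to the adjacent library unless named otherwise, and the cause of each shift was not tested. The higher sterol sum in epithelial and luminal progenitor cells and the lower one in stromal cells kept their direction in each alternative run, while small shifts in immune cells did not. With a marker share of at least 95% the sterol arm was 0.66 in epithelial, -0.42 in stromal, 0.05 in myeloid (against -0.10), 0.21 in dendritic, -0.19 in lymphoid and 0.71 in luminal progenitor cells. The fatty acid arm was then 0.29 in epithelial and 0.40 in dendritic cells, and 14 epithelial, 4 stromal and 4 dendritic members were past 1.5-fold in either direction, against 5, 9 and 2. Also at 95%, 8 members were highest in adjacent dendritic cells, and the fatty acid arm of cycling against other adjacent lymphoid cells was 0.20. At 60% no lymphoid member passed 1.5-fold and the adjacent lymphoid cycling sterol ratio was 0.24. With at most 10% mitochondrial UMIs the sterol arm was 0.32 in epithelial and 0.49 in luminal progenitor cells, with 5 luminal progenitor members past 1.5-fold. Without the 5% of cells with the most UMIs the epithelial fatty acid arm was 0.14 and 1 myeloid member passed. Median ratio scaling, which moved the epithelial values by the median of all genes, gave 0.32 for the sterol and 0.13 for the fatty acid arm there, and it has no value for levels, orders or cycling.

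Thinned to 1000 UMIs, few UMIs per gene remain. The sterol arm was then -0.19 in myeloid, -0.09 in dendritic and 0.71 in luminal progenitor cells, and the fatty acid arm 0.31 in epithelial, 0.29 in stromal (against -0.17), 0.26 in myeloid, -0.30 in dendritic, -0.06 in lymphoid (against 0.17) and 0.89 in luminal progenitor cells. Stromal regulators were 0.07, Idi1 -0.42 and Lss -1.59 in epithelial, Fdft1 0.79 in stromal and Hsd17b7 -2.23 in luminal progenitor cells. Members past 1.5-fold numbered 0 in epithelial, stromal and dendritic cells and 1 in myeloid and luminal progenitor cells. Members highest in epithelial cells numbered 6 and 12, in stromal cells 3 and 1, and in adjacent lymphoid cells 5. Cycling lymphoid ratios were 0.04 (sterol, adjacent), -0.22 (fatty acid, adjacent) and 0.15 (sterol, tumour).

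Without cycling cells the sterol arm was -0.23 in myeloid, 0.21 in dendritic, -0.20 in lymphoid and 0.38 in luminal progenitor cells, and the fatty acid arm 0.44 in epithelial, -0.02 in myeloid, 0.08 in lymphoid and 0.46 in luminal progenitor cells. Fdps was -0.42, Nsdhl -0.80 and Hsd17b7 -0.80 in luminal progenitor cells, where 2 members passed 1.5-fold, as did 3 in myeloid cells. In the tumour library 11 members were then highest in epithelial, 1 in myeloid and 8 in dendritic cells. With at least 20 UMIs per gene 5 dendritic members passed. At a fold of 2, the numbers were 1 epithelial, 1 stromal, 0 dendritic, 0 lymphoid and 2 luminal progenitor members. Chosen after seeing the data, equal weight for every cell gave a sterol arm of 0.30 in epithelial, -0.21 in myeloid and -0.20 in lymphoid cells, a stromal fatty acid arm of 0.01, Elovl6 of -0.02 in epithelial cells, 3 myeloid and 6 dendritic members past 1.5-fold, 3 members highest in tumour stromal cells and an adjacent lymphoid cycling sterol ratio of 0.05. Also added, the cycling list without Stmn1 and Hmgb2 gave cycling sterol ratios of 0.39 and 0.49 in lymphoid cells. No paired analysis was possible because each group holds 1 library. Depth limits single genes most in stromal and dendritic cells, where 10 and 8 of the 19 sterol genes had under 50 UMIs.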

Other observations

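Cells that met no lineage rule, 2170 in the adjacent and 2339 in the tumour library, had a sterol sum of 414 and 401 CPM and a fatty acid sum of 184 and 205 CPM, between the myeloid and epithelial values. NK cells had a sterol sum of 506 and 407 CPM (ratio 0.804, 0.711 to 0.908) and a fatty acid sum of 230 and 295 CPM (ratio 1.29, 1.10 to 1.51), so the arms lay on opposite sides of 1 in 168 and 150 cells. In neutrophils Sc5d, the late sterol desaturase, was at 33.4 and 31.2 CPM against 19.8 and 15.6 CPM in mononuclear phagocytes, while Cyp51 was at 18.7 and 16.8 CPM against 44.0 and 41.4 CPM.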
